A study of Mus musculus with 5 samples.

Results

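The cytosolic ribosomal protein genes were taken as the rows of the count table whose symbol is Rpl or Rps followed by digits and at most one of the letters x, y, a or l, together with Rplp0, Rplp1, Rplp2 and Rpsa. This gave 83 of the 34970 genes in the table, 51 of the large and 32 of the small ribosomal subunit; 3 of them (Rps4l, Rpl32l and Rpl6l) are annotated as pseudogenes. RNA sequencing was done on 5 mouse libraries, 1 per group, all labelled wild type and all made from polyA RNA out of Trizol-extracted total RNA. MCC is the library of the myeloid-like cell complex, from a series on the direct conversion of fibroblasts to macrophages; MEF came from mouse embryonic fibroblasts and iPSC from induced pluripotent stem cells. BM is a bone marrow library, and PB one of blood cells, for which the series' design names CD45+ cells (CD45 is the leukocyte surface protein encoded by Ptprc) while the sample's labels say blood cells, so whether red cells were removed is not known. How MCC was made, the passage of any culture and the age of any animal were not given in the sources used here.

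A ribosome is built from ribosomal RNA and a set of proteins, most of them present once per ribosome, so their genes are usually expressed at matched levels. Their mRNAs are short, very abundant, and start with a run of pyrimidines, the TOP motif, through which growth signals acting on mTOR and LARP1 control their translation together. Some of the proteins have paralogs made in few tissues, such as the testis or striated muscle, and the mouse genome holds many processed pseudogenes that resemble the mRNAs, so reads can be shared between copies.

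Total counts per library ranged from 30078366 to 47557598. Levels are given in CPM, read counts relative to library sizes that were scaled with TMM, a trimmed mean of the ratios between libraries. With 1 library per group there is no spread between replicates and no test: differences are between these 5 libraries, and 95% intervals (exact, Clopper-Pearson) express counting error alone. In such bulk samples, a lower level from fewer cells of a type and one from less RNA per cell cannot be told apart. The libraries differed in their cell markers: haemoglobin genes took 9.04% of the PB reads, neutrophil markers reached a summed 57495 CPM in BM, and MCC held both macrophage markers (summed 6144 CPM) and fibroblast markers (summed 24510 CPM, beside 18107 in MEF). The fibroblast sum was higher in MCC than in MEF through Col3a1 alone (11734 CPM in MCC, 1770 in MEF). The other fibroblast markers were lower in MCC: Col1a1 (6563 and 8923 CPM), Col1a2 (5548 and 6384) and Thy1 (665 and 1030). PB also has a library code apart in number from the rest, and whatever that code records cannot be told apart from the PB cells.

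Ribosomal protein genes took 13.4% of the reads in MCC (interval 13.41 to 13.43), 11.0% in MEF (10.97 to 10.99), 9.98% in iPSC (9.969 to 9.987), 5.36% in BM (5.353 to 5.367) and 5.51% in PB (5.497 to 5.514). The share was thus highest in MCC and lowest in the marrow and blood libraries, with MEF and iPSC between. Among the 100 genes with the most reads, 50 in MCC, 48 in iPSC and 42 in MEF were ribosomal protein genes, against 19 in BM and 19 in PB. Haemoglobin reads lower every other share in PB: without haemoglobin and mitochondrial reads the PB share was 6.14% and the MCC share 13.7%.

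**Figure D1:**
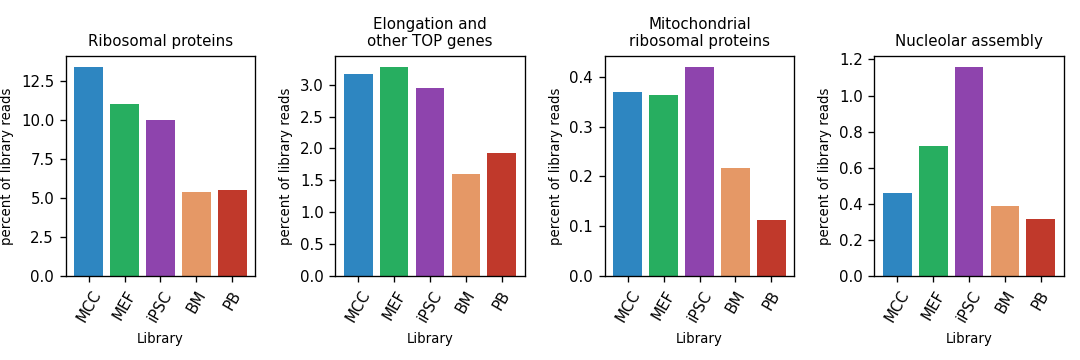
Share of each library's reads, in percent, in ribosomal protein genes, in elongation factors and other genes with TOP mRNAs, in mitochondrial ribosomal protein genes and in genes of nucleolar ribosome assembly; each bar is 1 library, and each panel has its own axis from 0. Ribosomal protein genes are highest in MCC at 13.4%, whereas assembly genes are highest in iPSC at 1.16%.

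The median member stood at 1791 CPM in MCC, 1410 in MEF, 961 in iPSC, 628 in BM and 642 in PB. These medians are over the 82 members that reached 5 CPM in some library. The exception was Rpl3l, a paralog of Rpl3 known from heart and skeletal muscle, at 0.139 CPM in MCC, 0 in MEF, 0.670 in iPSC, 1.52 in BM and 1.14 in PB. At the other end, 73 members reached 100 CPM in all 5 libraries. Reads of the large subunit exceeded those of the small subunit 1.29-fold in MCC, 1.29-fold in MEF, 1.38-fold in iPSC, 1.27-fold in BM and 1.26-fold in PB.

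**Figure D2:**
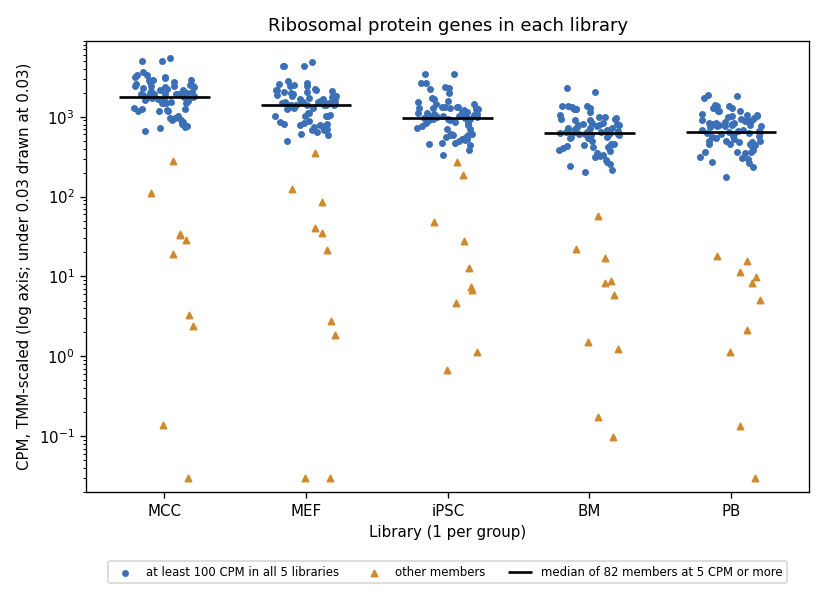
CPM of each ribosomal protein gene (log axis) in the 5 libraries; circles are the 73 members at 100 CPM or more in all 5, triangles the other members, and bars the median of the 82 members that reached 5 CPM in some library. The circles move together from library to library, with the median at 1791 CPM in MCC and 628 in BM, while the triangles spread over several orders of magnitude.

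The 8 members with the highest mean CPM came from both subunits and from the stalk that recruits translation factors. Rpsa, a small-subunit protein also known as the laminin receptor, stood at 5399 CPM in MCC, 4795 in MEF, 3441 in iPSC, 2070 in BM and 1826 in PB. Rplp0, which anchors the stalk to the large subunit, stood at 4944, 4305, 3439, 2276 and 1863 CPM in the same order of libraries. Its stalk partner Rplp1 stood at 4936, 4304, 2357, 1379 and 1354 CPM. The remaining stalk protein, Rplp2, was not among the 8, at 1517, 1294, 870, 761 and 668 CPM. All 3 stalk genes thus descended in the order MCC, MEF, iPSC, BM, PB.

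Rps2, a small-subunit protein at the mRNA entry, stood at 3653 CPM in MCC, 4266 in MEF, 2623 in iPSC, 1372 in BM and 830 in PB. It was the one gene among these 8 that was highest in MEF. Rpl4, in the wall of the peptide exit tunnel, stood at 3300, 2610, 2646, 1378 and 1717 CPM in the same order of libraries. Rpl3, near the peptidyl transferase centre, stood at 3363, 2773, 2250, 1325 and 1282 CPM, and Rps3, also at the mRNA entry, at 3029, 2445, 1961, 1274 and 1283 CPM. The X-linked Rps4x completed the 8 with 2902, 2415, 1705, 1261 and 1394 CPM. All 8 were lower in both BM and PB than in any of the other 3 libraries.

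Per kilobase of coding transcript, which allows levels to be compared between genes, the order of members was another one. Rplp1 led with 9892 CPM per kilobase in MCC, 8625 in MEF, 4722 in iPSC, 2763 in BM and 2713 in PB, followed by the small-subunit gene Rps12 with 6371, 5324, 3206, 2306 and 1601. Rpsa, first by CPM, was at place 12 per kilobase. The median over members of the mean level was 1398 CPM per kilobase, and it was 577 when the union of all annotated exons was used as the length, so per-length levels rest on the transcript chosen.

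The other X-linked members were highest in MCC and lowest in the BM and PB libraries as well. Rpl10, whose loading is a late step before the subunits join, stood at 2757 CPM in MCC, 2181 in MEF, 1328 in iPSC, 1003 in BM and 943 in PB. Rpl39, a small basic protein of the exit tunnel, stood at 1582, 1042, 612, 459 and 443 CPM, and Rpl36a at 910, 738, 517, 286 and 297 CPM. BM and PB were close to each other for all 4 X-linked members.

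Across the 82 members, MCC had the highest CPM for 72, MEF for 6, iPSC for 2, PB for 2 and BM for 0. The lowest CPM was in BM for 40 members and in PB for 39. A total of 32 members had the full order MCC, MEF, iPSC, BM, PB and another 29 the same order with PB above BM. As plain shares of the library, with no scaling between libraries, 68 members were highest in MCC and 9 in iPSC. The same counts were not made over all genes, so they describe the members without setting them apart from other genes.

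For 71 of the 82 members, each of MCC, MEF and iPSC lay above both BM and PB, whereas 32.2% of all 13998 genes that reached 5 CPM did so. The reverse, each of the 3 below both BM and PB, held for 0 members and for 24.6% of all genes. Of the large subunit 46 of 50 members were in the first class and of the small subunit 25 of 32. Among the 11 members outside it, 7 of them of the small subunit, were Rps7, Rps9, Rps10, Rps13, Rps27, Rps29, Rpl10l, Rpl17, Rpl24 and Rpl30. Against BM alone, leaving out PB, 78 of the 82 members were higher in all 3, an alternative chosen after the data were seen. The share of all genes under this looser rule was not computed, so the 78 cannot be set against other genes. Mitochondrial ribosomal protein genes, whose products make the separate ribosome of that organelle, had the pattern in 69 of 77, and genes of nucleolar assembly in 44 of 63.

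Against MEF, MCC had slightly more of most ribosomal protein transcripts. Of the 82 members 74 had the higher CPM in MCC, and the median log2 ratio was 0.34, a 1.26-fold difference, beside -0.01 over all genes at 5 CPM or more in either library. No member reached 2-fold higher in MCC (0 of the 79 members at 5 CPM or more in either library; 15.1% of all genes did), and 2 were 2-fold lower (10.1% of all genes). The spread of the members was narrow, with quartiles of 0.21 and 0.46 on the log2 scale, whereas those of all genes were -0.49 and 0.53.

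The member with the largest excess in MCC over MEF was Rps29, a zinc-binding small-subunit protein, at 1499 CPM in MCC, 836 in MEF, 557 in iPSC, 542 in BM and 638 in PB. MCC was 1.79-fold (1.77 to 1.82) above MEF, and the other 4 libraries lay between 542 and 836 CPM. Rps26, which lies at the mRNA exit, stood at 1780, 1014, 783, 424 and 362 CPM, so MCC was 1.76-fold (1.73 to 1.78) above MEF. Rpl28, Rps21 and Rpl37a followed at 1.61-fold, 1.54-fold and 1.53-fold. These 5 differences lay below the 2-fold rule. At 1.5-fold, 7 members were higher in MCC than in MEF and 2 lower, so which direction had more calls depends on the fold chosen, while no gene changed direction. The share of all genes at 1.5-fold was not computed.

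The members lower in MCC than in MEF were led by Rps4l and Rpl39l, the 2 that passed the 2-fold rule. Rps4l, annotated as a transcribed processed pseudogene that resembles Rps4x, stood at 32.7 CPM in MCC, 85.9 in MEF, 188 in iPSC, 8.27 in BM and 2.11 in PB, so MCC was 2.63-fold below MEF (2.47 to 2.80). Rpl39l, a paralog of Rpl39 best known from male germ cells, stood at 19.0, 40.3, 4.69, 0.172 and 0.134 CPM, so MCC was 2.12-fold below MEF (1.95 to 2.31). Its BM and PB values rest on 7 and 4 reads. Rps27l, Rps2 and Rpl13a were 1.25-fold, 1.17-fold and 1.12-fold lower in MCC than in MEF.

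Against BM, nearly the whole group was higher in MCC. Of the 80 members at 5 CPM or more in either library, 74 were 2-fold or more above BM (29.3% of all genes) and 0 were 2-fold below (24.8% of all genes). The median log2 ratio was 1.53, 2.88-fold, beside 0.11 over all genes. Rpl39l had 819 reads in MCC and 7 in BM, 110-fold more by CPM (53.3 to 275). It was followed by Rpl13a at 5.05-fold, Rps27l at 4.81-fold, Rps26 at 4.20-fold and Rps4l at 3.95-fold. At the other end, Rps9 was 1.95-fold and Rpl8 1.68-fold higher in MCC, and Rps10 was 1.78-fold lower (1.44 to 2.21). In this pair, Rpl39l reached 5 CPM through MCC alone and Rps10 through BM alone.

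Rpl8, close to the catalytic centre of the large subunit, stood at 2080 CPM in MCC, 1926 in MEF, 1671 in iPSC, 1237 in BM and 1176 in PB. It kept the order of the group with a narrower range. Cell cycle genes differed in the other direction in this pair: 23 of 24 were 2-fold lower in MCC than in BM and 0 higher, with a summed level of 1279 CPM in MCC and 6620 in BM. Their part in the ribosomal protein levels was not tested.

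Against PB, 70 of the 81 members at 5 CPM or more in either library were 2-fold or more higher in MCC (38.6% of all genes). A total of 2, Rpl24 and Rps10, were 2-fold lower (26.0% of all genes). Other annotated genes overlap both, and their counts are uncertain. In this pair, Rpl24 and Rps10 reached 5 CPM through PB alone, and Rpl39l and Rps4l through MCC alone. At a minimum of 20 CPM, 69 members were 2-fold higher in MCC and 0 lower. The median log2 ratio was 1.44, 2.71-fold, beside 0.38 over all genes. Rpl39l, with 819 reads in MCC and 4 in PB, was 142-fold higher in MCC (55.1 to 521), Rps27l 24.3-fold (21.9 to 27.2) and Rps4l 15.5-fold (12 to 20.3). These 3 are paralogs or copies; next came Rpl13a at 6.29-fold and Rps26 at 4.92-fold. The smallest excess among the abundant genes was in Rps27, at 1.35-fold (1.33 to 1.37), and Rpl5, at 1.53-fold. Of 24 cell cycle genes, MCC had 16 at 2-fold above PB and 0 below, unlike against BM; PB held a summed 570 CPM of them.

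Against iPSC, the difference was smaller and rested on the scaling. Of the 81 members at 5 CPM or more in either library, 30 were 2-fold or more higher in MCC (24.3% of all genes) and 3 were lower (19.2% of all genes), at a median log2 ratio of 0.92 beside 0.14 over all genes. On total counts, with no TMM scaling, 2 members were higher and 3 lower, and the median was 0.52, since that scaling shifts the median of all genes by -0.39 on the log2 scale. Most higher calls thus fell below the 2-fold rule, few members were called at all, and the median stayed above 0. The share of all genes called on total counts was not computed. Relative to the median of all genes, which scaling cannot change, the members lay 0.78 higher on the log2 scale. Shifts over 0.1 also occurred on total counts in the comparisons with BM (-0.14) and PB (-0.13), and on DESeq2 size factors in that with PB (-0.28). The distance of the members from the median of all genes was 1.42 for BM, 1.05 for PB and 0.35 for MEF on the log2 scale.

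Rpl39l had the largest MCC to iPSC ratio, 4.04-fold (3.50 to 4.68), followed by Rps29 at 2.69-fold, Rpl39 at 2.59-fold and Rps27 at 2.48-fold. Rpl7 and Rps27l were nearly level between MCC and iPSC, at 1.02-fold each, and the interval of Rps27l (0.995 to 1.04) spans equality. The 3 genes lower in MCC than in iPSC were Rps10 at 2.02-fold (1.66 to 2.47), Rps4l at 5.76-fold (5.45 to 6.10) and Rpl10l. Rpl10l, the autosomal retrogene of the X-linked Rpl10 known from the testis, had 0 reads in MCC, MEF and PB, 4 in BM and 391 in iPSC (7.48 CPM). It was at least 108-fold higher in iPSC than in MCC, counted against a floor of 3 reads per library. In this pair, Rpl10l and Rps10 reached 5 CPM through iPSC alone, and Rpl39l through MCC alone. At a minimum of 20 CPM, 29 members were 2-fold higher in MCC and 1 lower.

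**Figure D3:**
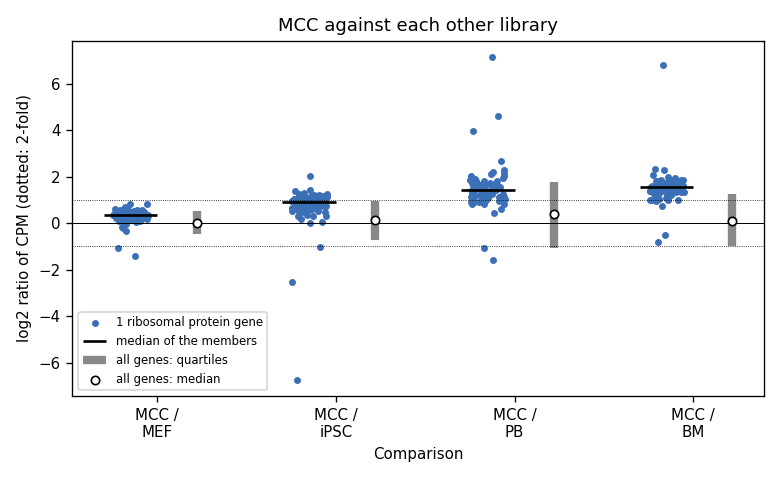
log2 ratio of CPM in MCC to that in each other library; dots are the ribosomal protein genes that reached 5 CPM in some library (none is drawn where both libraries are at or under 3 reads, and a library with 0 reads is set to 3), lines their median, and grey bars with an open circle the quartiles and median of all genes. The members' medians are 0.34, 0.92, 1.44 and 1.53, and most dots lie closer together than the quartiles of all genes, apart from a few copies, Rps10 and Rpl24.

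Between iPSC and MEF, 3 members were 2-fold higher in iPSC (Rps4l, Rpl10l and Rps10; 16.4% of all genes) and 3 lower (Rpl13a, Rpl41 and Rpl39l; 16.5% of all genes), and the median log2 ratio was -0.52, beside -0.11 over all genes. Of this pair, Rpl10l and Rps10 reached 5 CPM in iPSC alone, and Rpl39l in MEF alone. On total counts, 3 were higher and 2 lower, and the median was -0.16 beside 0.25 over all genes. Between PB and BM, 1 member, Rpl24, was 2-fold higher in PB (16.0% of all genes) and 2, Rps4l and Rps27l, were lower (23.4% of all genes), with a median of 0.03 beside -0.18 over all genes. Rpl24 reached 5 CPM in PB alone, and Rps4l in BM alone. On DESeq2 size factors the median was 0.22, with 2 higher and 2 lower. Of the 82 members, 43 were higher in PB than in BM. Among the abundant genes Rps27 was furthest from equality between these libraries, 1.96-fold higher in PB.

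The make-up of the ribosomal protein reads was described by each member's share of the summed member reads, which needs no scaling between libraries. For the median member, the library with the highest share exceeded the one with the lowest 1.42-fold, and for the median of all genes, set against the same sum, it was 6.91-fold. By a rule of 1.5-fold or more, 26 of the 82 members varied (97.7% of all genes), 13 of 50 in the large and 13 of 32 in the small subunit. A total of 9 varied 2-fold or more. The sum itself differed between libraries, from 5.36% of the reads in BM to 13.4% in MCC. A gene with a constant share of the library would therefore pass the 1.5-fold rule. The values over all genes are partly set by this divisor and do not show that the members are steadier than other genes. Among the steadiest members were Rpl18 at 1.08-fold, Rps27a at 1.10-fold, Rpl37 at 1.14-fold and Rps14 at 1.15-fold. Rpl18, for example, made up 1.26% of the ribosomal protein reads in MCC, 1.28% in MEF, 1.34% in iPSC, 1.36% in BM and 1.34% in PB.

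Over the 73 members at 100 CPM or more in all libraries, the log2 shares of MCC and MEF had the highest Pearson correlation of the 10 pairs of libraries (r = 0.967, across genes, which are not independent) and those of PB and iPSC the lowest (r = 0.833). PB had r of 0.844 with MCC and 0.844 with MEF. The SD of the difference in log2 share over these genes was 0.19 between MCC and MEF and 0.39 between MCC and PB. Since the members differ widely in level and length, every pair correlates highly, and these values are a description only.

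**Figure D4:**
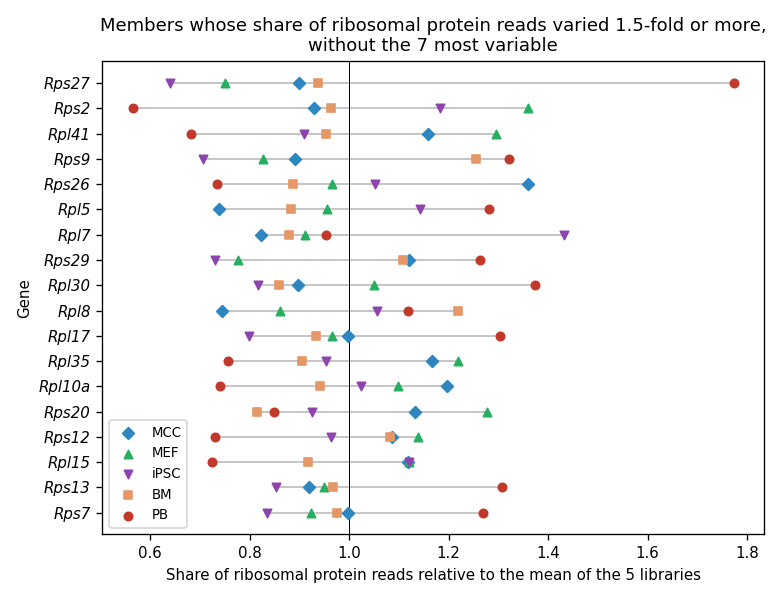
Share of the summed ribosomal protein reads taken by each of 18 members (rows), divided by the mean of that share over the 5 libraries (horizontal axis, 1 marks the mean); each symbol is 1 library. The members past the 1.5-fold rule are shown without the 7 most variable and without 1 other; PB lies at one end of the row for most of them, as for Rps27 (1.56% in PB) and Rps2 (1.5% in PB).

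Among the 26, the highest share was in PB for 11, in MEF for 7, in iPSC for 5, in MCC for 2 and in BM for 1. Rps27, a zinc-finger protein of the small subunit, made up 1.56% of the ribosomal protein reads in PB and 0.563% in iPSC, a 2.78-fold range. Its level was 1168 CPM in MCC, 781 in MEF, 471 in iPSC, 442 in BM and 867 in PB, so that PB exceeded MEF and iPSC in CPM too. Rps2 had the opposite pattern, at 1.5% in PB and 3.61% in MEF, 2.41-fold. Rpl41, the smallest of the proteins, ranged 1.91-fold with MEF highest and PB lowest, Rps9 1.87-fold with PB highest and iPSC lowest, and Rps26 1.85-fold with MCC highest and PB lowest. Of the 11 members with their highest share in PB, Rps7, Rps9, Rps13, Rps27, Rps29, Rpl17, Rpl24 and Rpl30 had their lowest in iPSC.

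Of the 9 members past 2-fold in share, 3 share most of their transcript with another gene of the annotation and their counts are uncertain. Same-strand exons of another gene covered 91.6% of the transcript of Rps10 (chr17:27630418-27636669, GENCODE M21 on mm10), 71.5% of Rpl24 (chr16:55966275-55971435) and 59.3% of Rpl13a (chr7:45125558-45128761). Their levels were far below those of other core members. Rps10 stood at 3.33 CPM in MCC, 2.75 in MEF, 6.73 in iPSC, 5.94 in BM and 9.94 in PB, and Rpl24 at 2.43, 1.85, 1.13, 1.23 and 5.06 CPM in the same order of libraries. Rpl13a, a protein also known for translational silencing in monocytes, stood at 112, 125, 48.3, 22.2 and 17.8 CPM. None of the 3 overlapping genes has a row of its own in the count table, and the annotation used for counting is not known. How the overlap bears on these levels was not tested. Since the strand setting is not known, genes on the opposite strand make further counts uncertain. A total of 8 members had any such overlap. It covered 68.3% of the transcript of Rpl35, 55.4% of Rpl23a, 46.6% of Rpl5 and 34.7% of Rpl30, and 10.3% or less in the rest. For Rps10 the pseudogene Rps10-ps1 held more reads than the gene itself, at 72.6 CPM in MCC, 57.6 in MEF, 39.0 in iPSC, 24.5 in BM and 23.2 in PB. Without members that share exons, 23 of 78 varied 1.5-fold in share, an alternative chosen after the data were seen.

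The other members past 2-fold in share, besides Rps27 and Rps2, were Rpl10l, Rpl39l, Rps4l and Rps27l. To show how far the reads of such copies differ from those of their parents, the coding sequences of Rpl39 (chromosome X) and Rpl39l (chromosome 16, gene at chr16:10170226-10174911) are given 5′ to 3′ from GENCODE M21, with the bases that differ in capitals.
Rpl39: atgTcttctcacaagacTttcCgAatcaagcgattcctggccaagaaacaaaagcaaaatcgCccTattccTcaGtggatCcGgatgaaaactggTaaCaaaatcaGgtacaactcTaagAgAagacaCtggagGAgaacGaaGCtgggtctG
Rpl39l: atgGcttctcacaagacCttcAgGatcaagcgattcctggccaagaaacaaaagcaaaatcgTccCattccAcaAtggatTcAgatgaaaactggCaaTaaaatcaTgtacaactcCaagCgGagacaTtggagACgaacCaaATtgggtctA
Both have 153 bases and differ at 23 of them, so 85.0% of bases are identical. Rpl39l had 1.20 reads per 100 reads of Rpl39 in MCC, 3.86 in MEF, 0.766 in iPSC, 0.0375 in BM and 0.0302 in PB. MCC, MEF and iPSC were thus all above BM and PB, with MEF at the top.

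Rps27l, a target of p53, differs from Rps27 (chromosome 3) at more positions, as the coding sequences with the differing bases in capitals show; the gene lies at chr9:66946086-66949516.
Rps27: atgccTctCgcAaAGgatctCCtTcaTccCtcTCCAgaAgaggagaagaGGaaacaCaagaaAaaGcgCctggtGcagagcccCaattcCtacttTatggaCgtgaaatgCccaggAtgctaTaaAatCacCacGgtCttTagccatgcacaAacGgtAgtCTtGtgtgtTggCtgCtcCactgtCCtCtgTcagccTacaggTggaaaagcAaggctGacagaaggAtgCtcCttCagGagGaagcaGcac
Rps27l: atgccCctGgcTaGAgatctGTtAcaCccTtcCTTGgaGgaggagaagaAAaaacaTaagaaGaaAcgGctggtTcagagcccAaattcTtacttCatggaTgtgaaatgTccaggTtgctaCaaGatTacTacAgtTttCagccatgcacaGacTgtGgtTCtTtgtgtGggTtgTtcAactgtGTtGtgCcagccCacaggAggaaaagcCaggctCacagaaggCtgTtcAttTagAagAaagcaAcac
They differ at 60 of 252 bases, and the longest identical run is 11 bases. Rps27l stood at 279 CPM in MCC, 349 in MEF, 273 in iPSC, 57.9 in BM and 11.4 in PB. Per 100 reads of Rps27 this was 23.9 in MCC, 44.7 in MEF, 58.0 in iPSC, 13.1 in BM and 1.32 in PB. In PB, then, Rps27 had its highest share and Rps27l its lowest, and in iPSC the reverse.

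Rps4l (chr6:148354656-148355598) shares 80.0% of the aligned bases with the coding sequence of Rps4x. It had 1.13 reads per 100 reads of Rps4x in MCC, 3.56 in MEF, 11.0 in iPSC, 0.656 in BM and 0.151 in PB, while Rps4x itself was highest in MCC. Rpl10l (chr12:66283379-66284401) shares 84.7% of bases with Rpl10. It had 0.563 reads per 100 of Rpl10 in iPSC, 0.00979 in BM and 0 in the other 3.

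Copies nearly identical to the parent had flat ratios. Rpl6l shares 98.7% of its bases with Rpl6, with a run of 354 identical bases, and had 2.04 reads per 100 of Rpl6 in MCC, 2.10 in MEF, 2.12 in iPSC, 2.13 in BM and 2.02 in PB. Rpl32l shares 97.2% of bases with Rpl32 and had 1.04, 1.06, 1.0, 0.951 and 0.992 reads per 100 of Rpl32 in the same order of libraries. These ratios varied little over the libraries while the parents' levels varied 2-fold or more. Their own levels were low, with Rpl6l at 34.3 CPM in MCC, 34.8 in MEF, 28.0 in iPSC, 17.2 in BM and 15.6 in PB, and Rpl32l at 28.7, 21.2, 12.8, 8.74 and 8.20 CPM in that order. Both copies are annotated as processed pseudogenes, and reads of copy and parent cannot be fully told apart. The 237 rows named as -ps pseudogenes together had 1.66, 1.66, 1.68, 1.54 and 1.62 reads per 100 reads of the members, nearly flat as well.

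**Figure D5:**
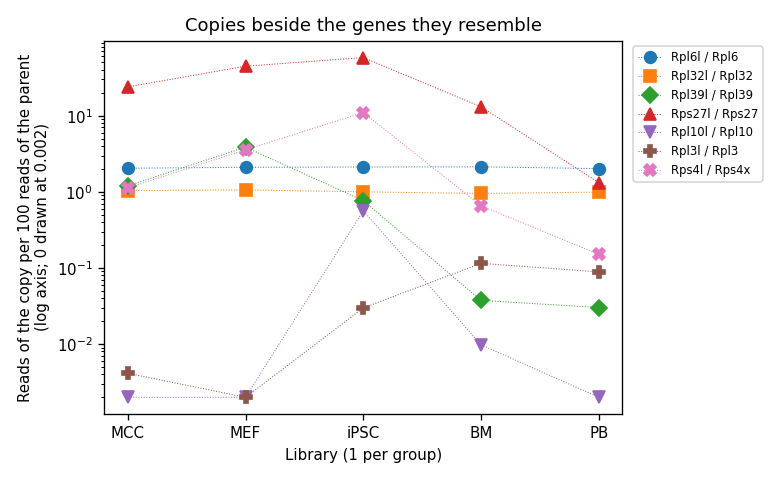
Reads of each paralog or pseudogene copy per 100 reads of the gene it resembles (log axis; 0 is drawn at 0.002) in the 5 libraries; dotted lines only join the symbols of 1 copy. Rpl6l and Rpl32l are level near 2 and 1, whereas Rps4l lies between 0.151 in PB and 11.0 in iPSC and Rps27l between 1.32 and 58.0.

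The windows of 25 bases on either side of the annotated start were searched in the 61 members with an entry in the RefSeq promoter table (GRCm38.p6), since the members move together and their mRNAs are known for a pyrimidine run at the start. A run of 7 or more pyrimidines occurred in 35 of the 61, 57.4%, and in 29.2% of all 27022 promoters and 31.9% of those of mitochondrial ribosomal protein genes. CTTTC on the coding strand was in 29.5% of the members and 6.60% of all, CTTCC in 26.2% and 10.9%, and CTTTT in 9.84% and 5.20%. In promoters of mitochondrial ribosomal protein genes CTTCC reached 24.6%, while CTTTC and CTTTT stood at 5.80% and 2.90%. On the other strand of the members CTTCC was nearly as frequent as on the coding strand, unlike CTTTC and CTTTT. The excess of CTTCC was thus particular neither to the members nor to the coding strand. At least 1 of the 3 motifs, which can overlap, was in 50.8% of the members and 20.6% of all promoters, and on the other strand in 31.1% and 21.1%. A match is a description of the sequence and not a site. In 26 of the 61 the longest run was shorter than 7 bases, core members among them. Shown, picked for the lengths of their runs, are core members with long runs (Rpl7a and Rpl27a), a run of middle length (Rps26) and short runs (Rps19 and Rpl41), and the paralogs Rpl39l and Rpl10l, which lie within the range of the core members, read 5′ to 3′ with the annotated start in the middle and the longest pyrimidine run in capitals.
Rpl7a (chr2:26910782-26910831, plus strand): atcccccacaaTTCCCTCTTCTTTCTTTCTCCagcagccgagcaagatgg
Rpl27a (chr7:109519170-109519219, plus strand): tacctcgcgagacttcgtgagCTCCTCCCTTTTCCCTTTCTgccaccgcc
Rps26 (chr10:128626482-128626531, minus strand): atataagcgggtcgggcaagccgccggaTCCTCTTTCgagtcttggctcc
Rps19 (chr7:24884567-24884616, plus strand): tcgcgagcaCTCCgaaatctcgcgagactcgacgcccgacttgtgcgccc
Rpl41 (chr10:128549144-128549193, minus strand): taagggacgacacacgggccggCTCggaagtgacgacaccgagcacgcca
Rpl39l (chr16:10170203-10170252, plus strand): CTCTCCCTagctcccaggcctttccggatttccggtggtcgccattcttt
Rpl10l (chr12:66284377-66284426, minus strand): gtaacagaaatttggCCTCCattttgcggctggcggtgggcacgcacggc
The run was 21 bases long in Rpl7a, 20 in Rpl27a, 9 in Rps26, 4 in Rps19, 3 in Rpl41, 8 in Rpl39l and 5 in Rpl10l. Of these genes, Rpl7a stood at 2057 CPM in MCC, 1390 in MEF, 1247 in iPSC, 807 in BM and 661 in PB. Rpl27a stood at 1927, 1504, 960, 637 and 627 CPM, and Rpl41 at 2261, 2025, 1002, 676 and 499 CPM. These 3, with long and short runs, were highest in MCC, as were most members. The runs shown for Rps19, Rpl41, Rpl39l and Rpl10l lie before the annotated start, so they would not be in an mRNA that begins there. For all the core members shown (Rpl7a, Rpl27a, Rps26, Rps19 and Rpl41) the gene start in GENCODE lies outside the window shown. Their runs, long or short, thus depend on the start chosen.

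Other genes of the translation machinery were set beside the members. Their counts are to be read against the shares of all genes that were 2-fold higher and lower in MCC: 29.3% and 24.8% against BM, 38.6% and 26.0% against PB, 15.1% and 10.1% against MEF, and 24.3% and 19.2% against iPSC. Of the ribosomal proteins whose names fall outside the rule, Rps3a1 stood at 2372 CPM in MCC, 1953 in MEF, 1408 in iPSC, 1007 in BM and 1271 in PB. Rack1, a small-subunit scaffold for signalling proteins, stood at 3296, 3248, 2224, 1415 and 1276 CPM in the same order of libraries. Fau, whose product includes a small-subunit protein, stood at 1301, 972, 580, 801 and 929 CPM and was lower in iPSC than in PB. Of the 6 such genes that reached 5 CPM, 4 were 2-fold higher in MCC than in BM and 4 than in PB, with 0 lower.

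Of the 19 members linked to Diamond-Blackfan anaemia, an inherited failure of red cell production, 18 were 2-fold higher in MCC than in BM and 0 lower, beside 74 of 80 for all members. Against PB, 15 were higher and 1, Rps10, was lower. Rps19, the gene most often mutated in it, stood at 2437 CPM in MCC, 1685 in MEF, 1073 in iPSC, 667 in BM and 647 in PB. Rps24 stood at 2402, 2197, 1328, 794 and 1198 CPM, and Rpl5 at 1500, 1554, 1322, 654 and 981 CPM. Rps19 and Rps24 were highest in MCC, and Rpl5 was nearly level between MCC and MEF.

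Elongation factors and other genes with TOP mRNAs had smaller median log2 ratios than the members, at 0.97 for MCC against BM, 0.88 against PB and -0.05 against MEF. Of 14 genes, 7 were 2-fold higher in MCC than in BM and 0 lower, 5 higher and 0 lower than in PB, and 0 higher and 2 lower than in MEF. Eef1a1, which brings aminoacyl-tRNA to the ribosome, stood at 14028 CPM in MCC, 12603 in MEF, 10220 in iPSC, 6008 in BM and 7538 in PB. The list had 23.5 reads per 100 reads of the members in MCC, 29.9 in MEF, 29.6 in iPSC, 29.9 in BM and 35.1 in PB, lowest in MCC.

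Genes of ribosome assembly in the nucleolus had another order of libraries than the proteins they assemble. Their summed level was 5059 CPM in MCC, 7735 in MEF, 9719 in iPSC, 3870 in BM and 3182 in PB. Per 100 reads of the members this was 3.43 reads in MCC, 6.55 in MEF, 11.6 in iPSC, 7.21 in BM and 5.74 in PB. MCC, with the most ribosomal protein reads, had the fewest assembly reads for them. Of the 63 genes, 11 were 2-fold lower in MCC than in MEF and 0 higher, and the median log2 ratio was -0.60. Against iPSC, 0 were higher and 29 lower, with a median of -0.95. Against PB the direction was the other one, with 15 higher and 0 lower and a median of 0.66.

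The nucleolar chaperone Npm1 stood at 795 CPM in MCC, 1411 in MEF, 1573 in iPSC, 335 in BM and 358 in PB, and nucleolin (Ncl) at 601, 1094, 1556, 453 and 416 CPM in the same order of libraries. Both were highest in iPSC, where the summed members lay below MCC and MEF. Against BM, 4 of the 63 assembly genes were 2-fold higher in MCC and 2 lower, at a median of 0.34 on the log2 scale, beside the 1.53 of the members. Cell cycle genes were also lower in MCC than in MEF (0 of 24 higher and 6 lower) and than in iPSC (0 higher and 22 lower), and their part in these differences was not tested.

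Mitochondrial ribosomal protein genes were nearly level between MCC and MEF, with 0 of 77 higher, 1 lower and a median of 0.09 on the log2 scale. Against BM, 31 of the 77 were 2-fold higher in MCC and 0 lower, and against PB, 68 and 0. Between PB and BM, 38 of the 76 at 5 CPM or more in either library were 2-fold lower in PB and 0 higher, with a median of -1.01, against 0.03 for the cytosolic members. Over all genes, 23.4% were 2-fold lower in PB and 16.0% higher, with a median of -0.18. Mrpl12, their most abundant gene by mean CPM, stood at 150 CPM in MCC, 181 in MEF, 164 in iPSC, 63.2 in BM and 17.2 in PB. Initiation factors, which load mRNAs onto the small subunit, had 3 of 26 genes 2-fold higher and 0 lower in MCC than in BM, and 0 higher and 2 lower than in MEF. Against PB, 15 of the 26 were higher and 2 lower, with a median of 1.24 on the log2 scale.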

How the data were processed

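The authors deposited raw counts of reads by gene symbol for the 5 libraries. The submitters' processing notes name the tools STAR and featureCounts, with the build mm10; versions, annotation, strand setting and the handling of reads with several matches were not given in the sources used here, and the last can change the values of members with near-identical copies. From the counts, CPM was computed on TMM-scaled library sizes of the 5 libraries (edgeR 4.0.16, run under R 4.3.3). Python 3.11.15 with scipy 1.17.1, pandas 2.3.3, numpy 2.4.6 and matplotlib 3.10.9 did the rest. Of per-sample columns, 0 were left unused.

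With 1 library per group, a gene was counted as higher or lower when its CPM ratio was at least 2-fold and the higher library reached 5 CPM. Counts under 3 were set to 3, a floor of 0.0694 CPM in MCC, 0.0694 in MEF, 0.0574 in iPSC, 0.0736 in BM and 0.100 in PB. Intervals are exact 95% conditional binomial ones; reads without molecular identifiers are not independent molecules. The arithmetic was tested on simulated data.

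Lengths and overlaps came from GENCODE M21 (shortest principal transcript), promoters from RefSeq. Named with full values were the 8 members with the highest and the 8 with the lowest mean CPM, the 5 at each end of every comparison, the members varying most and least in share, the stalk, paralog and X-linked members, and the leading genes of other lists; some others were chosen once their values were known. Some members are counted but not named here. The members and lists were chosen with earlier results of these data known. Alternatives were DESeq2 1.42.0 size factors, total counts, TMM without the members or without abundant genes, other folds and minimum levels, and other definitions of the share.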

Additional observations from a re-analysis of the deposited data

How the results depend on the processing

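Leaving out a replicate was not done, since each group has 1 library, and depth limits only the genes of few reads, chiefly Rpl10l, Rpl39l and Rpl3l. No paired analysis was possible because each group has 1 library. No median log2 ratio changed sign under the alternatives run. In 2 comparisons, MCC against MEF and MCC against iPSC, the direction with more calls changed with the setting.

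The count of members past the rule for MCC against MEF, 2 (0 higher, 2 lower), was 9 at 1.5-fold (7 higher, 2 lower), 0 at 4-fold and 1 when the near bound of the counting interval had to pass. For MCC against BM, 74, it was 4 at 4-fold; for MCC against PB, 72, it was 10 at 4-fold; for MCC against iPSC, 33 (30 higher, 3 lower), it was 5 on total counts (2 higher, 3 lower), 3 at 4-fold (1 higher, 2 lower) and 67 at 1.5-fold. The 26 members varying in share were 9 at 2-fold. The median level of 1398 CPM per kilobase was 577 with the union of exons as length.

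The median log2 ratios moved by more than counting error under DESeq2 size factors to 0.31 (MEF), 1.43 (BM), 1.16 (PB) and 0.86 (iPSC), on total counts to 0.30, 1.39, 1.31 and 0.52, and under TMM without the members to 0.36, 1.54, 1.41 and 0.95. Under TMM without haemoglobin, mitochondrial and the most abundant genes they were 0.34, 1.52, 1.44 and 0.91. With all members and a pseudocount of 0.5 CPM they were 1.52 (BM), 1.43 (PB) and 0.90 (iPSC), and as means 0.30, 1.52, 1.5 and 0.72. Chosen after the data were seen, total counts and DESeq2 size factors gave -0.16 and -0.49 for iPSC against MEF (reported -0.52) and 0.02 and 0.22 for PB against BM (reported 0.03).

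The share of reads in PB, BM, MCC, MEF and iPSC was 6.14%, 5.47%, 13.7%, 11.1% and 10.2% without haemoglobin and mitochondrial reads, 5.96%, 5.54%, 13.9%, 11.2% and 9.84% without the 10 most abundant genes of each library, 5.86%, 5.70%, 14.1%, 11.6% and 10.5% with the ribosomal proteins outside the naming rule added, and 5.59%, 5.44%, 13.6%, 11.2% and 10.1% with the -ps pseudogenes added.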
